A study of Rattus norvegicus with 23 samples.

Results

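The genes described here are 10 cytokine and receptor genes of the TNF, IL-6, IL-10 and TGF-beta axes, taken by name from the 20301 genes of the deposited expression table: Tnf with its receptors Tnfrsf1a and Tnfrsf1b, Il6, the shared receptor chain Il6st, Osm with its receptor Osmr, Il10 with its receptor Il10ra, and Tgfb1. They were measured by RNA sequencing in 23 samples of microglia from Wistar rat pups operated on at 7 days of age. The Sham group (6 samples) had a neck incision under anaesthesia, and no injection is listed for it. The LPS group (5 samples) received 0.1 mg/kg of lipopolysaccharide from Escherichia coli into the abdomen 4 h before a sham operation. The NaCl/HI group (6 samples) received saline and then hypoxia-ischemia (HI), that is, ligation of the left common carotid artery followed by 50 min at 8% oxygen, and the LPS/HI group (6 samples) received LPS before the same injury. Cells were taken 24 h after the operation with magnetic beads against CD11b/c, which other macrophages and granulocytes also carry. Sham and LPS samples came from the entire brain of 1 pup, whereas each HI sample pooled the injured-side hemispheres of 2 pups, so the effect of HI and that of the hemisphere or the pooling cannot be told apart. In comparisons with Sham, the effect of an injection cannot be told apart from that of LPS or HI. In bulk samples of this kind, fewer cells of a type and less RNA per cell cannot be told apart either.

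Tumour necrosis factor is released by activated microglia and acts through a death-domain receptor, Tnfrsf1a, and a second receptor that is abundant on myeloid cells, Tnfrsf1b. Interleukin-6 and oncostatin M belong to one cytokine family that signals through the shared chain gp130 (Il6st) to JAK kinases and STAT3. Osmr is a receptor chain for oncostatin M that pairs with gp130. Interleukin-10 restrains inflammatory transcription through Il10ra and STAT3, and TGF-beta 1 acts through Tgfbr1, Tgfbr2 and the SMAD proteins and maintains the microglial state.

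Promoter sequences were at hand for 8 of the 10 genes, from RefSeq on the rat build GRCr8, which is not the build of the expression table (mRatBN7.2); Osm and Il10 had no entry. The last 120 bases before the annotated start are given for the 3 genes with an entry that fell after LPS (Il6, Il6st and Osmr) and for Tnf, whose change did not pass the test, 5′ to 3′ on the strand of the gene, with motif matches in capitals. Il6 lies at chr4:5894576-5894695 on the minus strand, Il6st at chr2:45810112-45810231 on the plus strand, Osmr at chr2:57688562-57688681 on the minus strand and Tnf at chr20:3626565-3626684 on the plus strand.
Il6: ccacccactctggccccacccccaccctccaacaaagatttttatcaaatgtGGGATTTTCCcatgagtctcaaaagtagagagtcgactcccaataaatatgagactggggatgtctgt
Il6st: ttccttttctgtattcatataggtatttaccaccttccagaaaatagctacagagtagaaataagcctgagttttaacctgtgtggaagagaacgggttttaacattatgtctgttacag
Osmr: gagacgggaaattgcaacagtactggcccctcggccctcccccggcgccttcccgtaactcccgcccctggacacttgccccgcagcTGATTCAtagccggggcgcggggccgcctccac
Tnf: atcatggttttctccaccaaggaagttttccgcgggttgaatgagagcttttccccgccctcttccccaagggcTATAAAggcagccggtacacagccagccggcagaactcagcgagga
The capitals mark a match to the kappaB consensus in Il6 (68 to 59 bases before the start), the AP-1 motif TGANTCA in Osmr (33 to 27 bases before it) and TATAAA in Tnf (46 to 41 bases before it). Both strands were searched over 250 bases before each start for these motifs, for the STAT motif TTCNNNGAA and for the CRE half-site TGACG. The Il6 window also held a pair of overlapping half-sites farther upstream, at 162 to 158 and 159 to 155 bases before the start, and the Il6st window held none of these letters. Genes that did not pass the test held matches too. Tnfrsf1b had an AP-1 motif at 186 to 180 and Tgfb1 a half-site at 30 to 26 bases before the start. Of all 33469 rat promoters of the same length, 6.33% held the kappaB consensus, 6.34% the AP-1 motif, 12.9% TATAAA, 7.67% the STAT motif and 18.2% the half-site. A match is a run of letters and says nothing of binding, and whether transcription begins at these annotated starts in microglia was not tested.

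Expression is given as the deposited log2 value, a regularised log of the read counts with 3 surrogate variables removed, so a difference of 1 is a 2-fold change on this scale. A regularised log shrinks differences, more so at low counts, so the folds given here can be smaller than folds of counts. The values are not per gene length and are therefore not compared between genes. The 4 group means were estimated together by limma from the 23 samples, p-values were corrected over the 20301 genes by the Benjamini-Hochberg method, and a gene is said to rise or fall where its adjusted p is under 0.05. The removal of surrogate variables had also lowered the spread within groups, so these p-values may be too small. Microglial markers were present in every sample, the mean log2 value of the 10 such genes examined lying between 13.32 and 13.70. No 2 libraries held the same values. Libraries 1 to 12 hold replicates 1 to 3 of each group and libraries 13 to 23 the others. This is a numbering and not a stated batch, and differences within each set of numbers are given for those of the 10 genes that passed and, as counts and examples, for the pathway genes.

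LPS alone lowered 4 of the 10 genes and raised 0 of them, against 7.56% of all genes lower and 10.2% higher in LPS than in Sham. Those 4 were Il6, the receptor chains Il6st and Osmr, and Il10. Tnf, both TNF receptors, Osm, Il10ra and Tgfb1 did not pass the test. In each of the 4 genes that fell, all 5 LPS samples lay below all 6 Sham samples, as they did in 5.83% of all genes (8.05% lay wholly above). The median difference of the 10 genes was -0.10, and that of all genes was -0.01.

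**Figure D1:**
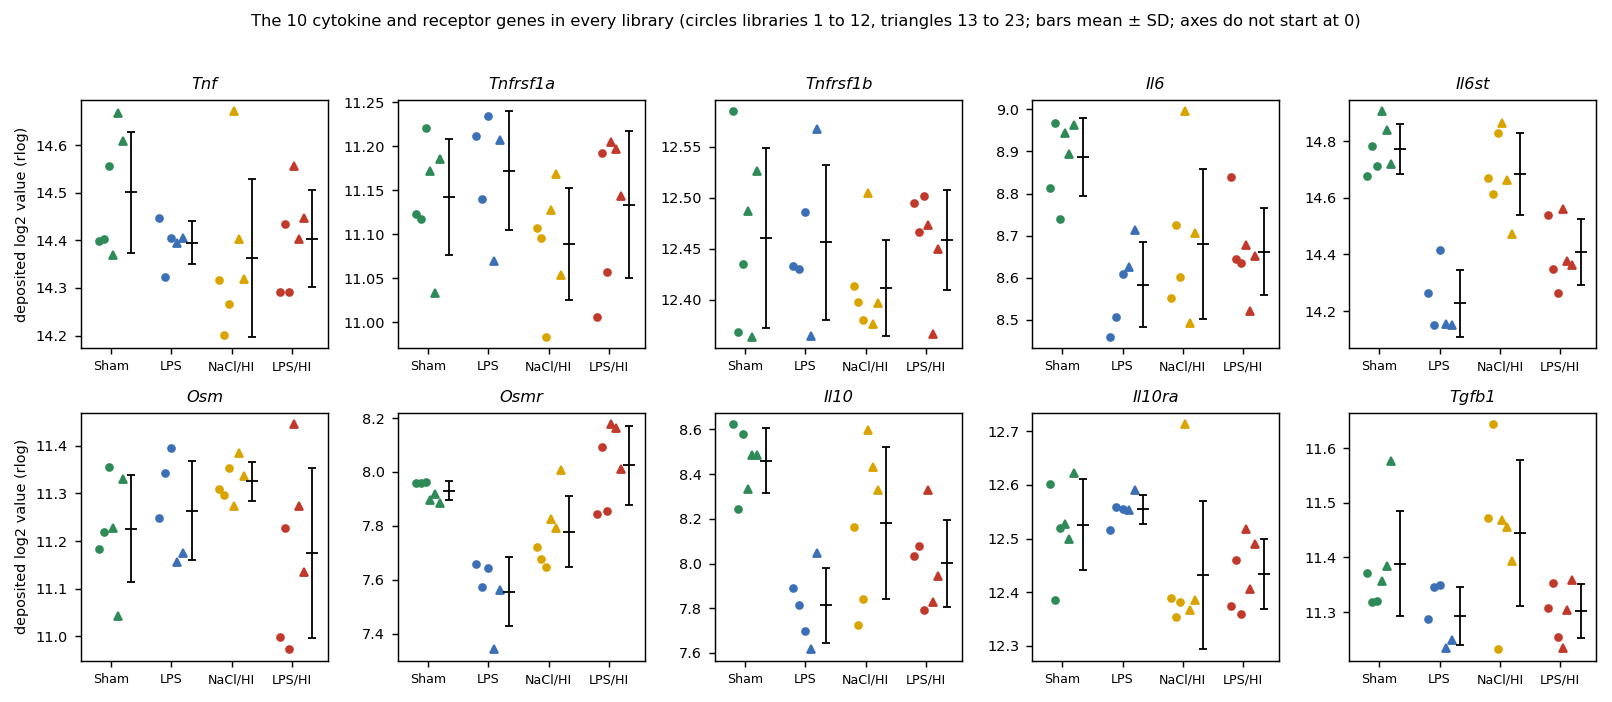
Deposited log2 value (y axis, which does not start at 0) of each of the 10 genes in each library, by group (x axis), with the group mean ± SD; circles are libraries 1 to 12 and triangles libraries 13 to 23. Il6, Il6st, Osmr and Il10 lie lower in LPS than in Sham with no overlap, and Osmr in LPS/HI lies above all LPS samples.

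Il6st, the signal-transducing chain for the whole IL-6 family, had log2 values of 14.26, 14.15, 14.42, 14.15 and 14.15 in the 5 LPS samples. In Sham it ranged from 14.68 to 14.90 with a median of 14.75. The highest LPS sample was thus below the lowest Sham sample. The difference was -0.55 ± 0.07 (SE, adjusted p = 3.14e-05), a fold of 0.685, and it was -0.45 within libraries 1 to 12 and -0.67 within libraries 13 to 23. In LPS/HI, Il6st ranged from 14.26 to 14.56 with a median of 14.37, again below every Sham sample, as in 2.52% of all genes, and the difference from Sham was -0.36 ± 0.07 (SE, adjusted p = 0.00527), with -0.34 and -0.39 within the 2 sets of library numbers. In NaCl/HI it ranged from 14.47 to 14.86 with a median of 14.67. These values overlapped those of Sham and of LPS/HI but lay above those of LPS, as in 2.52% of all genes, and LPS was lower than NaCl/HI by a log2 difference of -0.46 ± 0.07 (SE, adjusted p = 0.000465), with -0.43 and -0.51 within the sets. From high to low the group means were 14.77 in Sham, 14.68 in NaCl/HI, 14.41 in LPS/HI and 14.23 in LPS, and no neighbours in this order passed the test (adjusted p = 0.582, 0.103 and 0.224).

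Osmr, the receptor chain that pairs with Il6st to bind oncostatin M, had log2 values of 7.66, 7.57, 7.64, 7.34 and 7.56 in the LPS samples and ranged from 7.88 to 7.96 in Sham (median 7.94). LPS was lower than Sham in 5 of 5 samples, by -0.37 ± 0.08 (SE, adjusted p = 0.00182), and by -0.34 and -0.45 within the lower and the higher library numbers. In LPS/HI it ranged from 7.85 to 8.18 with a median of 8.05, and every LPS/HI sample lay above every LPS sample, as in 2.32% of all genes. The rise from LPS to LPS/HI was 0.47 ± 0.08 (SE, adjusted p = 0.00794), a fold of 1.38, and 0.31 and 0.66 within the 2 sets of library numbers. The same 5 LPS samples enter both of these differences. With the exact Wilcoxon rank-sum test in place of limma, the adjusted p of this rise was 0.104, the smallest that any gene had in this comparison, so that test could call none.

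The interaction is the difference between the effect of LPS with HI and its effect without HI. It uses the Sham samples, so an injection cannot be told apart in it either. In the limma fit of all samples without weights, Osmr was the only one of the 10 genes whose interaction passed the test. LPS/HI exceeded NaCl/HI by 0.25 ± 0.07 (SE, adjusted p = 0.17), whereas LPS was lower than Sham, and the interaction was 0.62 ± 0.11 on the log2 scale (SE, adjusted p = 0.0124). It was 0.59 within libraries 1 to 12 and 0.69 within libraries 13 to 23. Of all genes, 0.365% had a positive and 0.719% a negative interaction, and of the 10 genes 1 had a positive and 0 a negative one. Among the markers of other cells, the endothelial gene Flt1 and the neutrophil gene Olfm4 also passed with a positive interaction. Their part in the interaction of Osmr was not tested. With the replicate number as a block, the adjusted p of the Osmr interaction was 0.0769. With array weights, the interactions of Il6 (adjusted p = 0.0138) and Il10 (0.0332) passed too. In NaCl/HI, Osmr ranged from 7.65 to 8.01 with a median of 7.76. The order of the group means was 8.02 in LPS/HI, 7.93 in Sham, 7.78 in NaCl/HI and 7.56 in LPS, and no neighbours in it passed the test (adjusted p = 0.431, 0.335 and 0.0736).

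Il10, the anti-inflammatory cytokine, had the widest spread of the 10 genes within groups (SD of 0.25 after the group means). Its log2 values were 7.89, 7.81, 7.70, 7.62 and 8.05 in LPS, and in Sham it ranged from 8.24 to 8.62 with a median of 8.49. The groups did not overlap, and the difference was -0.65 ± 0.13 (SE, adjusted p = 0.00214), a fold of 0.639, with -0.68 and -0.60 within the sets of library numbers. In LPS/HI it ranged from 7.79 to 8.33 with a median of 7.99, and 1 LPS/HI sample (replicate 4) lay above the lowest Sham sample. The difference of LPS/HI from Sham was -0.46 ± 0.13 (SE, adjusted p = 0.0305), with -0.51 and -0.40 within the sets, and 6 of 6 LPS/HI samples lay below the Sham mean. This call was lost in 8 of the 23 fits that left out 1 sample, those without Sham replicate 1, 3, 5 or 6 or without LPS/HI replicate 2, 3, 5 or 6 (adjusted p up to 0.0773), and with the replicate number as a block (adjusted p = 0.053). NaCl/HI spanned a wider range, from 7.72 to 8.60 with a median of 8.25. Its difference from Sham was -0.28 ± 0.13 (SE, adjusted p = 0.322), which was -0.57 within libraries 1 to 12 and 0.02 within libraries 13 to 23. The group means fell in the order Sham (8.46), NaCl/HI (8.18), LPS/HI (8.0005) and LPS (7.81), with no neighbours past the test (adjusted p = 0.322, 0.655 and 0.559). LPS was lower than NaCl/HI by a log2 difference of -0.37 (adjusted p = 0.0934). That passed without NaCl/HI replicate 2 or 3 (adjusted p down to 0.0298) and with array weights (0.0481).

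Il6, the acute-phase cytokine, had log2 values of 8.46, 8.51, 8.61, 8.63 and 8.71 in LPS. The Sham samples ranged from 8.74 to 8.97 with a median of 8.92. The LPS values were thus all lower, by a narrow margin, and the difference was -0.30 ± 0.08 (SE, adjusted p = 0.00992), a fold of 0.810. Within the sets of library numbers it was -0.31 and -0.26. Il6 ranged from 8.52 to 8.84 in LPS/HI (median 8.65) and from 8.49 to 8.996 in NaCl/HI (median 8.65), and both groups overlapped Sham. Their differences from Sham were -0.23 ± 0.07 (SE, adjusted p = 0.0598) and -0.21 ± 0.07 (SE, adjusted p = 0.216). That of LPS/HI passed the test in 4 of 9 alternatives (full degrees of freedom, the 2 groups alone, quantile normalization and array weights) and in 3 of the 23 fits that left out 1 sample. The highest NaCl/HI value was replicate 4, and without that sample the difference of NaCl/HI from Sham was -0.27 (adjusted p = 0.0316).

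Tnf did not pass the test in any comparison. The LPS samples had log2 values of 14.45, 14.32, 14.41, 14.39 and 14.41, and the Sham samples ranged from 14.37 to 14.67 with a median of 14.48. All 5 LPS samples were below the Sham mean of 14.50 but overlapped the Sham range. The difference of LPS from Sham was -0.11 (95% interval -0.26 to 0.05, adjusted p = 0.359). In NaCl/HI, Tnf ranged from 14.20 to 14.67 and in LPS/HI from 14.29 to 14.56. The adjusted p of Tnf over the 6 comparisons of groups and the interaction lay between 0.359 and 0.979. The paper states that dissection and isolation can affect how activated microglia are. Their part in the level of Tnf was not tested. The lymphotoxins Lta and Ltb, which are the nearest relatives of Tnf, did not pass the test either.

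Neither TNF receptor passed the test in any comparison. Tnfrsf1a had log2 values of 11.21, 11.14, 11.23, 11.07 and 11.21 in LPS and ranged from 11.03 to 11.22 in Sham. Its difference was 0.03 (95% interval -0.07 to 0.13, adjusted p = 0.705). Tnfrsf1b had values of 12.43, 12.43, 12.49, 12.36 and 12.57 in LPS and ranged from 12.36 to 12.58 in Sham, so the LPS range lay within that of Sham. The difference of LPS/HI from Sham was -0.01 for Tnfrsf1a (95% interval -0.10 to 0.09, adjusted p = 0.925). For Tnfrsf1b it was -0.00 (95% interval -0.09 to 0.09, adjusted p = 0.982).

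Osm, the ligand of the receptor made by Osmr and Il6st, did not pass the test in any comparison. It had log2 values of 11.25, 11.34, 11.40, 11.16 and 11.18 in LPS, and ranged from 11.04 to 11.35 in Sham, from 11.27 to 11.38 in NaCl/HI and from 10.97 to 11.45 in LPS/HI. The LPS/HI range was thus the widest and held all the NaCl/HI values. The difference of LPS/HI from LPS was -0.09 (95% interval -0.24 to 0.06, adjusted p = 0.622), and it was -0.26 within libraries 1 to 12 and 0.12 within libraries 13 to 23.

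Il10ra, the ligand-binding chain of the interleukin-10 receptor, had log2 values of 12.52, 12.56, 12.56, 12.55 and 12.59 in LPS and ranged from 12.39 to 12.62 in Sham, and LPS lay within the Sham range. Its difference was 0.03 (95% interval -0.09 to 0.15, adjusted p = 0.779). In NaCl/HI, 5 samples lay between 12.35 and 12.39 and replicate 4 at 12.71. Without that replicate, Il10ra was higher in LPS than in NaCl/HI by 0.18 (adjusted p = 0.0137), against 0.12 (adjusted p = 0.204) with it. Tgfb1 had values of 11.29, 11.35, 11.35, 11.23 and 11.25 in LPS and ranged from 11.32 to 11.58 in Sham. All 5 LPS samples lay below the Sham mean, and the difference was -0.10 (95% interval -0.22 to 0.03, adjusted p = 0.272). In LPS/HI, Tgfb1 ranged from 11.23 to 11.36, and in NaCl/HI from 11.23 to 11.64. Its difference of LPS from NaCl/HI was -0.15 (adjusted p = 0.113), or -0.19 without NaCl/HI replicate 3 (adjusted p = 0.0271).

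Some single samples stood apart over several of the genes. NaCl/HI replicate 4 had the highest value of its group in 6 of the 10 genes (Tnf, Tnfrsf1b, Il6, Il6st, Il10 and Il10ra). LPS/HI replicate 4 had the highest value of its group in 7 genes, and LPS replicate 4 the lowest value of its group in 6. The counts without each sample are given with the other alternatives.

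After HI without LPS, 0 of the 10 genes passed the test, against 0.00985% of all genes higher and 0% lower in NaCl/HI than in Sham. At an unadjusted p under 0.05 there were 3 (Il6, Osmr and Il10, all lower), that is 3 of 10 against 14.8% of all genes. The exact Wilcoxon rank-sum test called 0, and its smallest adjusted p over all genes was 0.213. The difference of Osmr was -0.15 ± 0.07 (SE, adjusted p = 0.335).

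LPS and HI together lowered 2 of the 10 genes against Sham, Il6st and Il10, and raised 0. Of all genes, 3.48% were lower and 5.3% higher in LPS/HI than in Sham. Against LPS alone, LPS/HI had 1 higher gene, Osmr, and 0 lower ones, where 1.22% of all genes were higher and 0.719% lower. Against NaCl/HI, LPS/HI had 0 of the 10 genes past the test in limma, and 4 at an unadjusted p under 0.05 (Il6st, Osm and Tgfb1 lower, Osmr higher). Of all genes, 0.153% were higher and 0.0493% lower in that comparison, and 10.6% had an unadjusted p under 0.05. The exact Wilcoxon rank-sum test called 0 there, and its smallest adjusted p over all genes was 0.162. LPS had 1 gene lower than NaCl/HI, Il6st, and 0 higher, against 3.66% of all genes lower and 5.32% higher, and the comparison is of a whole brain with a pooled hemisphere.

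No change of the 10 genes was above 2-fold in these regularised values. The paper applied a fold above 2 to DESeq2 estimates shrunken by another method, so its rule is of an unlike measure. Of all genes, those with an adjusted p under 0.05 and a fold above 2 made up 0.069% in LPS against Sham, 0.00493% in NaCl/HI against Sham, 0.0936% in LPS/HI against Sham, 0.0345% in LPS/HI against LPS, 0.0148% in LPS/HI against NaCl/HI, 0.0591% in LPS against NaCl/HI and 0.00985% for the interaction.

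**Figure D2:**
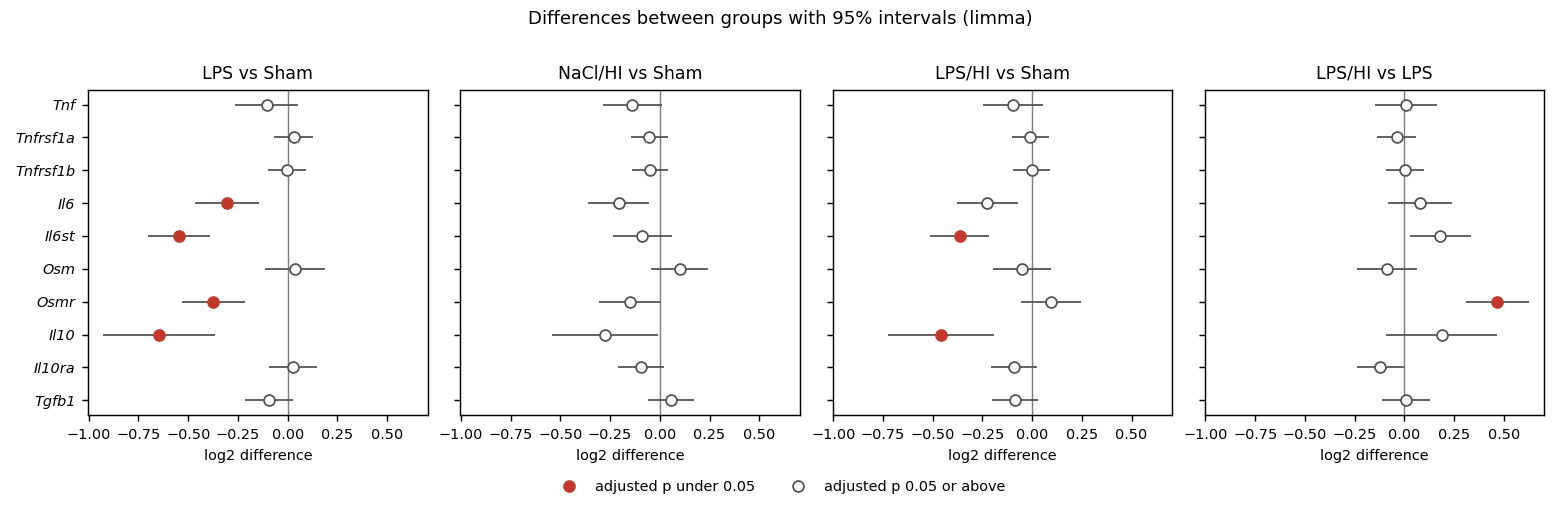
Difference in log2 value (x axis) of each of the 10 genes (y axis) in 4 comparisons, with its 95% interval from limma; filled points have an adjusted p under 0.05. Il6, Il6st, Osmr and Il10 lie to the left of 0 in LPS vs Sham, Il6st and Il10 in LPS/HI vs Sham, and Osmr to the right in LPS/HI vs LPS.

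The pathways around these genes were read from 110 further genes, listed by role: 32 around TNF, 29 of the IL-6 family and of JAK-STAT signalling, 14 around IL-10 and 35 of TGF-beta. Of 113 genes listed, Il20, Il22 and Il22ra1 were not analysed here. In LPS against Sham, 9 of the 110 rose and 13 fell, with a median difference of -0.01. By share of the list this is read against the 10.2% and 7.56% of all genes given above. All 22 had the same sign within libraries 1 to 12 and within libraries 13 to 23. The calls of 14 were held in each of the 23 fits that left out 1 sample, and those of Itgav, Itgb5, Lif, Nrros, Pias3, Ptpn1, Ripk1 and Skil were not (held in 16 to 22). With the replicate number as a block, Itgav, Itgb5, Lif, Nrros, Pias3, Ripk1 and Skil did not pass.

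Around TNF, 4 of the 32 genes rose and 1 fell with LPS, where 10.2% of all genes rose and 7.56% fell. Birc3 (cIAP2), a ubiquitin ligase of the TNF receptor complex, ranged from 8.43 to 8.83 in LPS and from 8.03 to 8.29 in Sham, and the difference was 0.48 ± 0.09 (SE, adjusted p = 0.00109). Rbck1 and Sharpin, both parts of the linear ubiquitin ligase LUBAC, rose by 0.20 (adjusted p = 0.0038) and 0.17 (adjusted p = 0.00779). Tnip1, which helps A20 to restrain NF-kappaB, rose by 0.25 (adjusted p = 0.000555). The kinase Ripk1 fell by 0.14 (adjusted p = 0.0212). None of the 4 shedding genes (Adam17, Rhbdf1, Rhbdf2 and Timp3) passed the test.

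Among the IL-6 family and JAK-STAT genes, 3 of 29 rose and 2 fell with LPS, shares near the 10.2% and 7.56% of all genes. Socs2, a feedback inhibitor of cytokine receptors, had log2 values of 8.63, 8.52, 8.96, 8.16 and 8.52 in LPS and ranged from 9.17 to 9.31 in Sham. With no overlap it fell by 0.68 (SE 0.10, adjusted p = 4.88e-05), and the differences within the 2 sets of library numbers were -0.53 and -0.91. The ligand Lif fell by 0.35 (SE 0.11, adjusted p = 0.0253), a call that was lost without LPS replicate 1 or 4 or without Sham replicate 5 or 6 (adjusted p up to 0.0829), with quantile normalization (0.0644) and with the replicate number as a block (0.055). The kinase Tyk2, the STAT inhibitor Pias3 and the phosphatase Ptpn1 rose by 0.17, 0.14 and 0.18. Socs3, a target of STAT3 that blocks gp130, had a difference of 0.39 between group means of 11.97 in LPS and 11.58 in Sham (adjusted p = 0.0769) and did not pass the test.

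Around IL-10, Bcl3 rose and Nfil3 fell among 14 genes, where 10.2% of all genes rose and 7.56% fell. Bcl3, an NF-kappaB partner that is among the genes induced by interleukin-10, had log2 values of 8.67, 8.89, 8.71, 8.67 and 8.61 in LPS and ranged from 7.79 to 8.15 in Sham. All LPS samples were higher, by 0.73 ± 0.10 (SE, adjusted p = 3.47e-05). Nfil3, a transcription factor induced by interleukin-10 in macrophages, fell by 0.29 (adjusted p = 0.0128).

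Of the 35 further TGF-beta genes, 9 fell with LPS and 1 rose, where 7.56% of all genes fell and 10.2% rose. The 9 that fell were the ligand Tgfb3, the latency and activation genes Nrros and Itgav, the receptors Tgfbr1 and Tgfbr2, the signal transducer Smad3 and the inhibitors Smad7, Smurf1 and Skil. They thus include genes on both sides of the pathway. Smad7, itself a feedback target of the pathway, ranged from 10.45 to 10.75 in LPS and from 10.93 to 11.02 in Sham, and it fell by 0.34 (SE 0.05, adjusted p = 0.000111). Tgfbr1 fell by 0.34 (SE 0.09, adjusted p = 0.0117) and Smad3 by 0.27 (SE 0.05, adjusted p = 0.00182). All 9 falls were larger within libraries 13 to 23, which hold 2 LPS samples, than within libraries 1 to 12. The 2 differences were -0.59 and -0.12 for Tgfbr1, -0.42 and -0.14 for Smad3, -0.32 and -0.08 for Tgfbr2, and -0.47 and -0.25 for Smad7. The integrin chain Itgb5 rose by 0.18 (adjusted p = 0.0349). Of the 9 alternatives, Itgb5 passed in 6 (not with the 2 groups alone, quantile normalization or the block), Nrros in 5 (not with the 2 groups alone, median centring, the block or the Wilcoxon test), Skil in 7 (not with median centring or the block) and Itgav in 8. The median difference of the 35 genes was -0.09.

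**Figure D3:**
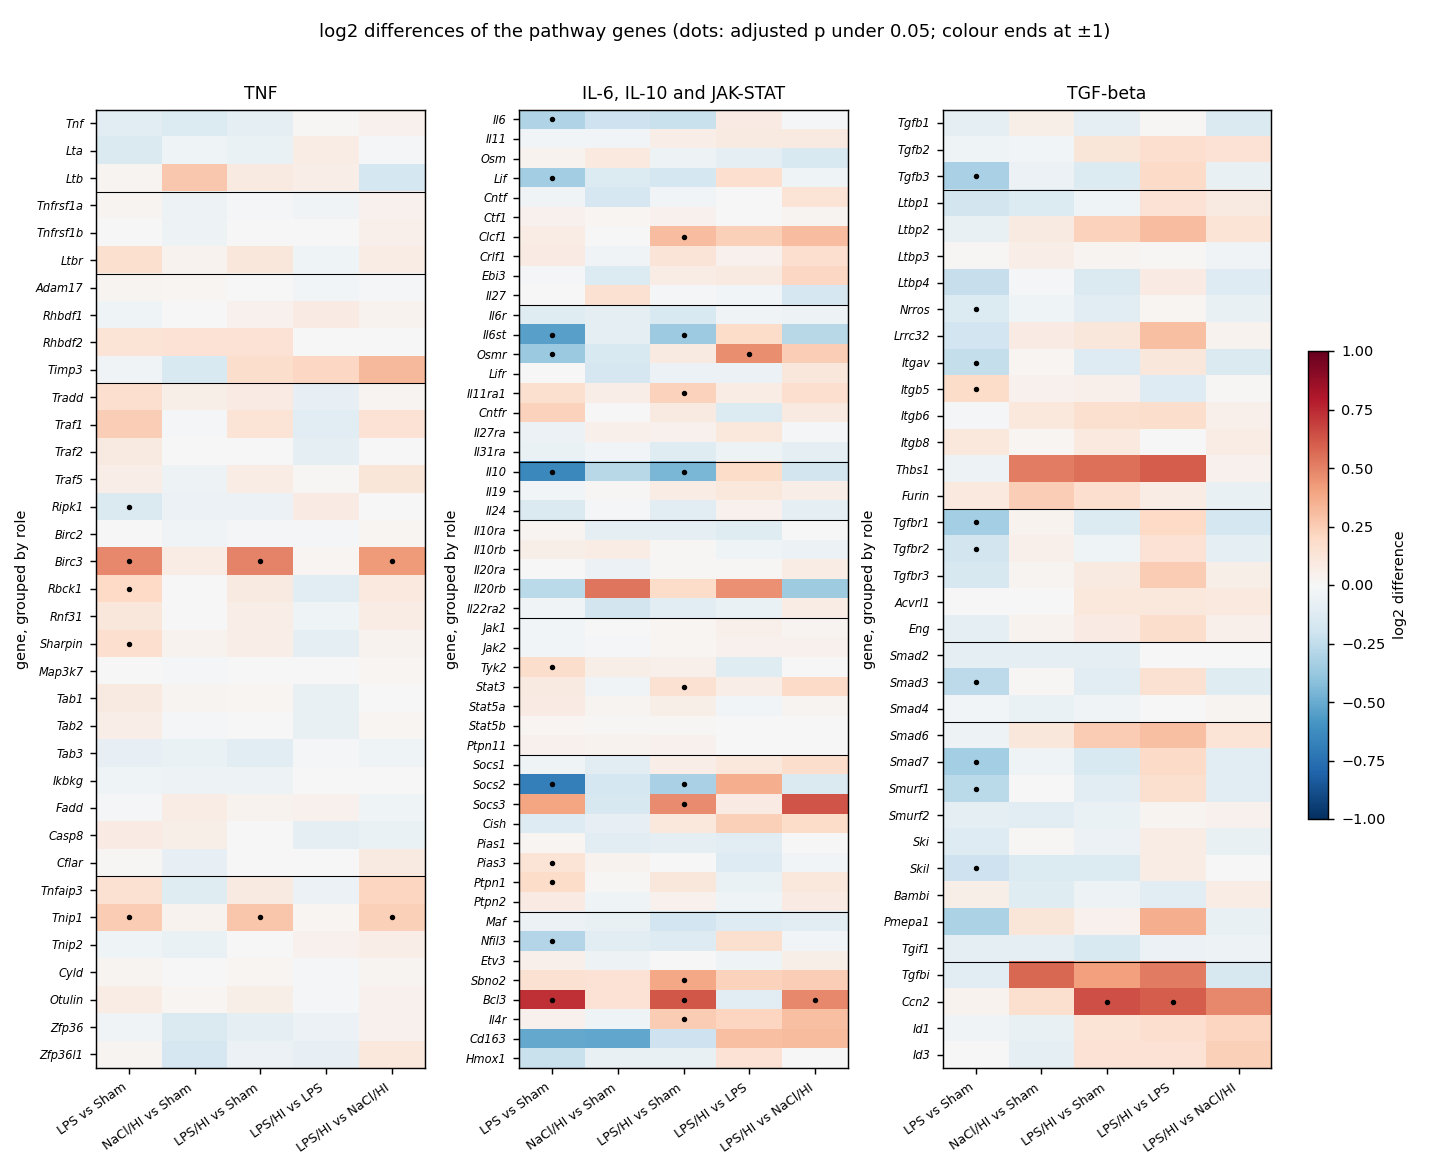
Difference in log2 value (colour, which ends at ±1) of the 10 genes and the 110 further pathway genes (y axis, grouped by role) in 5 comparisons (x axis); dots mark an adjusted p under 0.05. The dots of LPS vs Sham are spread over all pathways with 9 TGF-beta genes lower, NaCl/HI vs Sham has no dot, and Ccn2 has a dot in both LPS/HI vs Sham and LPS/HI vs LPS.

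In LPS/HI against Sham, 10 of the 110 genes rose and 1 fell, where 5.3% of all genes rose and 3.48% fell, and the median difference was 0.03. Of the 35 TGF-beta genes, 1 rose and 0 fell. The genes that rose were Birc3, Tnip1, the IL-6 family ligand Clcf1, the receptor Il11ra1, Stat3, Socs3, the genes Sbno2, Bcl3 and Il4r of the interleukin-10 list, and the TGF-beta target Ccn2. Socs2 fell by 0.32 (adjusted p = 0.0352), a call held in 14 of the 23 fits that left out 1 sample and lost with the replicate number as a block (adjusted p = 0.0681). Bcl3 ranged from 8.35 to 9.05 in LPS/HI and rose by 0.62 (SE 0.10, adjusted p = 0.00155), and Birc3 by 0.50 (SE 0.09, adjusted p = 0.00286). Ccn2, a matricellular protein gene, ranged from 7.92 to 8.46 in LPS/HI and from 7.28 to 7.90 in Sham. With no overlap, as in 3.85% of all genes, it rose by 0.64 (SE 0.13, adjusted p = 0.00709). Clcf1, Il11ra1, Stat3 and Il4r rose by 0.31, 0.23, 0.16 and 0.26. Of the 11 calls, those of Bcl3, Birc3, Tnip1, Sbno2 and Ccn2 were held in each of the 23 fits that left out 1 sample and in 9 of 9 alternatives. Clcf1 was held in 14 of the 23 fits, Il11ra1 in 15, Il4r in 17, Socs3 in 8 and Stat3 in 7, and all 5 were lost with the replicate number as a block. The count of 11 was 5 without Sham replicate 1 or 5 or without LPS/HI replicate 2 or 5, 6 without Sham replicate 6 or LPS/HI replicate 6, and 7 without Sham replicate 2. All 11 had the same sign within both sets of library numbers, with 0.20 and 0.75 for Socs3 and 0.48 and 0.80 for Ccn2.

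LPS/HI against LPS had 1 of the 110 genes higher, Ccn2, and 0 lower, where 1.22% of all genes were higher and 0.719% lower, so the share of the list was near that of all genes. Ccn2 ranged from 7.47 to 8.07 in LPS and overlapped LPS/HI, and the rise was 0.61 (SE 0.14, adjusted p = 0.0286). This call was lost without LPS replicate 4 or 5 or without LPS/HI replicate 2, 4 or 5 (adjusted p up to 0.109), and with the replicate number as a block (0.0813). The rise was 0.42 within libraries 1 to 12 and 0.85 within libraries 13 to 23. In LPS/HI against NaCl/HI, 3 rose (Bcl3, Birc3 and Tnip1) and 0 fell, against 0.153% and 0.0493% of all genes. Bcl3 rose by 0.48 (adjusted p = 0.0445) and Birc3 by 0.42 (adjusted p = 0.046), and each of these was held in 5 of the 23 fits that left out 1 sample. Tnip1 rose by 0.24 (adjusted p = 0.0328) and was held in 14. Of the 9 alternatives, Bcl3 passed in 4, Birc3 in 3 and Tnip1 in 6. All of them were lost in the fit of the 2 groups alone and with the replicate number as a block (adjusted p = 0.0694, 0.127 and 0.115), and in the Wilcoxon test, which could call no gene there. Bcl3 and Birc3 were also lost with quantile normalization and the library numbering block, and Birc3 with median centring. NaCl/HI against Sham had 0 of the 110 genes past the test in limma and in the exact Wilcoxon test, and 14 at an unadjusted p under 0.05, which 14.8% of all genes had. In LPS against NaCl/HI, which again uses the same LPS samples, 7 rose and 11 fell, against 5.32% and 3.66% of all genes, among them Bcl3 (0.59), Socs3 (0.55) and Birc3 (0.41) higher and Il20rb (-0.81), Tgfbi (-0.68) and Socs2 (-0.51) lower, and 9 of the genes that fell were TGF-beta genes. All 18 had the same sign within both sets of library numbers, and 10 of the calls were held in each of the 23 fits. Il20rb was held in 16, Tgfbi in 17 and Socs3 in 18, and in the fit of the 2 groups alone Il20rb and Tgfbi were lost, Il20rb with quantile normalization too.

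**Figure D4:**
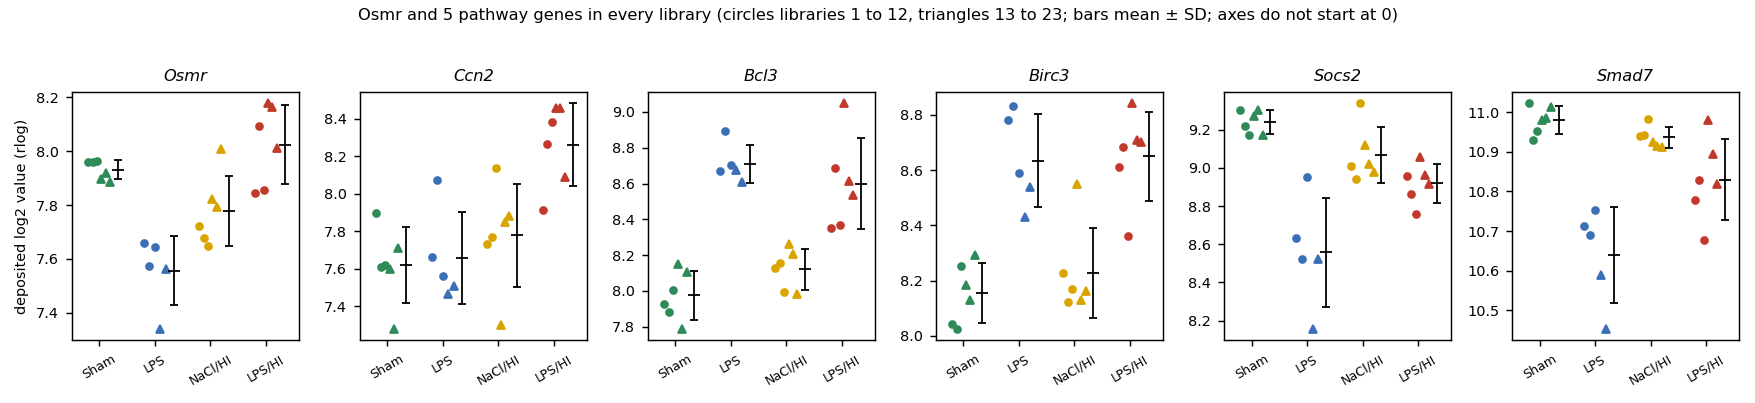
Deposited log2 value (y axis, which does not start at 0) of Osmr and 5 pathway genes in each library, by group (x axis), with the group mean ± SD; circles are libraries 1 to 12 and triangles libraries 13 to 23. Bcl3 and Birc3 lie higher in both LPS and LPS/HI than in Sham, Socs2 and Smad7 lie lowest in LPS, and Ccn2 has its highest mean in LPS/HI.

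Markers of other cells moved in the same comparisons. The counts in LPS against Sham stand beside 10.2% of all genes higher and 7.56% lower. There, 4 of 10 microglial markers fell (Cx3cr1, P2ry12, Sall1 and Gpr34) and 1 rose (C1qa), and the mean log2 value of that list ranged from 13.32 to 13.49 in LPS and from 13.44 to 13.70 in Sham. Of 8 markers of border-associated macrophages, the resident macrophages of meninges and vessels, Mrc1 and Lyve1 fell and Cbr2 rose. That list ranged from 10.34 to 10.62 in LPS and from 10.41 to 11.08 in Sham. Of 9 endothelial markers Kdr, Flt1 and Esam fell and Pecam1 rose, and the list ranged from 10.93 to 11.19 in LPS and from 11.04 to 11.35 in Sham. Of 8 neuronal markers 4 fell and of 8 astrocyte markers 2 rose, while 0 of 10 mural and fibroblast markers passed. Of 14 neutrophil markers 1 rose and 2 fell, of 9 monocyte markers 2 rose, and of 8 oligodendrocyte and 5 T cell markers 0 passed. Their part in the falls of Il6, Il6st, Osmr and Il10 was not tested.

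Beside the rise of Osmr from LPS to LPS/HI, 3 endothelial markers (Flt1, Esam and Vwf) and 4 mural and fibroblast markers rose, as did the neutrophil markers Mmp9 and Olfm4 and the microglial marker Olfml3, and the monocyte marker Plac8 fell, where 1.22% of all genes rose and 0.719% fell. The endothelial list ranged from 11.13 to 11.47 in LPS/HI and the mural list from 9.07 to 9.29, against 8.75 to 9.04 in LPS for the latter. In LPS/HI against Sham, 5 of 14 neutrophil markers rose (S100a8, S100a9, Mmp8, Mmp9 and Olfm4), and that list ranged from 6.54 to 7.47 in LPS/HI and from 6.36 to 6.72 in Sham. Of the other lists in that comparison, 2 endothelial, 5 mural, 3 monocyte and 1 astrocyte markers rose, and 3 neuronal, 1 microglial, 1 border macrophage and 1 T cell marker fell, where 5.3% of all genes rose and 3.48% fell. Their part in the changes of Osmr, Il6st and Il10 was not tested.

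In LPS against NaCl/HI, where 3.66% of all genes fell and 5.32% rose, the markers that fell were 2 of 10 in the mural and fibroblast list (Col1a1 and Col1a2), 2 of 9 in endothelium (Esam and Vwf), 2 of 10 in microglia (Sall1 and Olfml3), 1 of 9 in the monocyte list (Fn1), 1 of 8 in border macrophages (Lyve1) and 1 of 14 in neutrophils (Ngp). Those that rose were 1 each of the microglial, monocyte, border macrophage and endothelial lists (C1qa, Plac8, Cbr2 and Pecam1) and 2 of 8 astrocyte markers (Aldh1l1 and Aldoc). The mural list ranged from 8.75 to 9.04 in LPS and from 8.90 to 9.23 in NaCl/HI. In LPS/HI against NaCl/HI, where 0.153% of all genes rose and 0.0493% fell, 2 of 14 neutrophil markers rose (Olfm4 and Lcn2), and that list ranged from 6.54 to 7.47 in LPS/HI and from 6.17 to 6.71 in NaCl/HI. The part of these cells in the changes of Il6st and of the pathway genes was not tested.

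The genes most like each of the 10 were taken as the 3 with the highest Pearson correlation over the 23 samples, which share groups and libraries, so these are descriptions. For Il10 they were Lyve1 and Mrc1, both markers of border-associated macrophages, and Ripk1, each with r = 0.87. After the group means were taken out, r was 0.69, 0.82 and 0.80. Lyve1 was lower in LPS than in Sham by -0.83 and Mrc1 by -0.50, and the mean of the border macrophage list had r = 0.79 with Il10, or 0.75 after the group means. The microglial list had r = 0.66 with Il10 (0.46 after the group means) and the neuronal list 0.66 (0.34). The astrocyte list had r = -0.60 (-0.43) and the T cell list -0.34 (-0.71). For Osmr the most similar genes were Igfbp3 (r = 0.90), Slc6a17 (0.88) and Gimap5 (0.87), and the mean of the endothelial list had r = 0.76 with Osmr, or 0.47 after the group means. Igfbp3, an insulin-like growth factor binding protein, was lower in LPS than in Sham by -0.46 and its LPS/HI mean exceeded that of LPS by 0.54. Such differences follow in part from the choice by correlation, so no test is given for them.

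For Il6st the most similar genes were Dennd2c, Susd3 and Etv5 (each r = 0.94), and for Il6 they were Fcho2 (r = 0.93), Lats1 and Clock (both 0.92). Tnf was most like Ier5 (r = 0.87), Rabgef1 and Csrnp1 (both 0.85), of which Ier5 is an immediate early gene. Il10ra was most like Cd83 (r = 0.87), Tgfb1 like Agap1 (0.89), Tnfrsf1a like Sesn2 (0.83), Tnfrsf1b like Ganc (0.84) and Osm like Nek3 (0.75). Among the 10 genes themselves, the highest correlations over the samples were those of Il6st with Il10 (r = 0.67), of Tnf with Il10ra (0.66) and of Il6 with Il6st (0.63). After the group means were taken out, these were 0.09, 0.71 and 0.33.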

How the data were processed

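RNA was sequenced from CD11b/c-selected microglia of 23 samples. The authors quantified reads with kallisto 0.48.0 against mRatBN7.2, left out genes with fewer than 10 counts over all samples and deposited regularised log2 values (DESeq2) with 3 surrogate variables removed. Per the labels and methods, quality control used FastQC 0.11.9 and MultiQC 1.14. No counts entered the work, so sequencing depth is not known and a count test was not run. After the 4 group means the table held 16 independent dimensions, 3 fewer than the samples allow.

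Groups came from the sample titles. Group means were fitted with limma 3.58.1 (R 4.3.3) with a variance trend and 16 residual degrees of freedom, and two-sided p-values were adjusted over 20301 genes. Correlations and levels were computed with Python 3.11.15. Alternatives were full degrees of freedom, the 2 groups alone, the lowest 25% of genes left out, quantile normalization, median centring, array weights, a replicate block, a library numbering block, the exact Wilcoxon rank-sum test and each sample left out. The 10 genes and all lists were chosen with earlier results of these data known. The motifs were set after the promoters had been seen. Beside the 10 genes, the text names up to 3 pathway genes with the largest rise and 3 with the largest fall in each comparison and the 3 genes most correlated with each of the 10. The other pathway genes past the threshold and the markers are named to spell out counts, after their values were seen. Some genes of the lists are not reported here and are left out of their counts.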

Additional observations from a re-analysis of the deposited data

Results flagged for a closer look

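Of the 40 groups of values tested (10 genes in 4 groups), 3 held a sample that stood apart from the others by Dixon's test, which chance gives in about 1 of 20. Tnfrsf1b was 12.50 in NaCl/HI replicate 4, above the other samples of that group, and Il10ra was 12.71 in the same sample. Tgfb1 was 11.58 in Sham replicate 6, the highest of its group. The effect of LPS on Osmr differed with and without HI, by 0.62 on the log2 scale (limma interaction, adjusted p = 0.0124).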

How the results depend on the processing

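The 4 genes that fell with LPS against Sham were called in 9 of 9 alternatives and in 23 of 23 fits without 1 sample. In NaCl/HI against Sham, array weights called 1 gene (Il6) and the fits without 1 sample 0 to 1, the 1 being Il6 without NaCl/HI replicate 4. In LPS/HI against Sham, array weights called 4 (Il6, Il6st and Il10 lower, and Osmr higher at adjusted p = 0.0171). There, full degrees of freedom, the 2 groups alone and quantile normalization called 3 each (with Il6 added), the replicate block 1 (Il6st), and the fits without 1 sample 1 to 3. LPS/HI against LPS gave 0 with the exact Wilcoxon test and 1 in each fit without 1 sample. LPS/HI against NaCl/HI gave 1 with full degrees of freedom and 2 with array weights. LPS against NaCl/HI gave 2 with full degrees of freedom, 2 with array weights, 0 with the Wilcoxon test, and 1 to 3 without 1 sample (2, 3 and 2 without NaCl/HI replicate 2, 3 and 4). The interaction gave 3 with array weights (Osmr, Il6 and Il10), 0 with the replicate block and 1 to 2 without 1 sample (2 without NaCl/HI replicate 4). In the comparisons other than those of LPS and of LPS/HI with Sham, the Wilcoxon test could call no gene (smallest adjusted p of 0.0593 to 0.213 over all genes), so its counts of 0 say nothing of stability. The cause of the other changes was not tested. Counts of pathway genes moved more: over all alternatives and fits without 1 sample they ran from 15 to 29 in LPS against Sham (22 as reported), 5 to 42 in LPS/HI against Sham (11), 0 to 26 in LPS/HI against LPS (1), 0 to 23 in LPS/HI against NaCl/HI (3), 11 to 24 in LPS against NaCl/HI (18, the Wilcoxon test left out), 0 to 9 for the interaction (0) and 0 to 2 in NaCl/HI against Sham (0), array weights giving the highest value except in LPS against NaCl/HI and NaCl/HI against Sham. Replicate numbers did not pair samples: same-numbered samples correlated by -0.47 to 0.47 after the group means, 9 of 33 pairs over 0.1. The replicate block otherwise changed no call of the 10 genes. None of the called differences of the 10 genes, nor of Bcl3, Birc3, Ccn2, Il20rb, Lif, Smad7, Socs2, Socs3, Tgfbi and Tnip1, changed direction under an alternative. Without counts, the precision that depth gives is unknown.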
